A study of Mus musculus with 18 samples.

Results

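The genes described here encode activin and bone morphogenetic protein (BMP) ligands and the secreted proteins that bind them. They were taken by symbol from the count table: Inhba, Inhbb, Fst, Fstl3, Bmp2, Bmp4, Bmp7, Grem1, Nog and Chrd, which are 10 of its 22238 symbols. RNA came from whole uterus of adult CD-1 mice, an outbred stock, and the animals of all groups had been ovariectomized. One arm received doxorubicin (DOX, an anthracycline used in chemotherapy) and the other phosphate-buffered saline (PBS, the vehicle), and within each arm mice received oil (OIL, the hormone vehicle), estradiol (E2) or progesterone (P4). This gave 6 groups with 3 libraries in each: PBS OIL, DOX OIL, PBS E2, DOX E2, PBS P4 and DOX P4. The title of the series asks whether DOX changes the uterine response to estrogen. The sources used here state no dose, route or time. Nothing in the labels ties each library to its own animal, and p-values therefore reflect variation among libraries that may be technical.

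Activins and BMPs are ligands of the transforming growth factor beta family that act through pairs of serine and threonine kinase receptors and SMAD proteins. Activins are dimers of beta subunits, of which Inhba encodes beta A and Inhbb beta B, and follistatin (Fst) and follistatin-like 3 (Fstl3) bind them outside the cell. Bmp2, Bmp4 and Bmp7 encode BMP ligands, and gremlin (Grem1), noggin (Nog) and chordin (Chrd) are secreted proteins that keep BMPs from their receptors. In the mouse uterus, Bmp2 is known for its role in decidualization of the stroma around the implanting embryo. Fst is needed in the uterus for receptivity, and Bmp7 is also known from studies of receptivity.

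Promoters are shown for 4 of the genes whose transcripts moved most clearly with a hormone: Inhbb and Fstl3 (higher with E2), Inhba (higher with E2 in the DOX arm) and Chrd (higher with P4). Each is the 250 bases before the annotated start, 5′ to 3′ on the strand of the gene, from RefSeq on build GRCm38.p6. The RefSeq table matched 6 of the 10 genes (Inhbb, Grem1, Fstl3, Inhba, Bmp4 and Chrd). Capitals mark exact matches to the motifs searched, on either strand. The Inhbb window is chr1:119422249-119422498 (minus strand), that of Fstl3 chr10:79777024-79777273 (plus), that of Inhba chr13:16011601-16011850 (plus) and that of Chrd chr16:20732877-20733126 (plus).
Inhbb: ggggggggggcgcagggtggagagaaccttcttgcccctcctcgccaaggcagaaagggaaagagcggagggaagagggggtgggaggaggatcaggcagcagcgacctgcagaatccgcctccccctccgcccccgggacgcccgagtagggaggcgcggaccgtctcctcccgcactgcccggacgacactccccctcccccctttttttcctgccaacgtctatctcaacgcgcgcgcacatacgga
Fstl3: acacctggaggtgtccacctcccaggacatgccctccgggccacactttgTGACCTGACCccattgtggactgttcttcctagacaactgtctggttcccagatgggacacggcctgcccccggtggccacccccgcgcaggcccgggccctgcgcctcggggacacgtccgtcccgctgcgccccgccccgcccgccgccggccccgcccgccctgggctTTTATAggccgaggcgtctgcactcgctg
Inhba: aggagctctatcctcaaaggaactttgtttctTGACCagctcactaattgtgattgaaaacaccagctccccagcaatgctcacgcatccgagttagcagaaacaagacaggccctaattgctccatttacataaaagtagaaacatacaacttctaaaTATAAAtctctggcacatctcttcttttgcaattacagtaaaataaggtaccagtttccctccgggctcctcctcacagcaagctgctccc
Chrd: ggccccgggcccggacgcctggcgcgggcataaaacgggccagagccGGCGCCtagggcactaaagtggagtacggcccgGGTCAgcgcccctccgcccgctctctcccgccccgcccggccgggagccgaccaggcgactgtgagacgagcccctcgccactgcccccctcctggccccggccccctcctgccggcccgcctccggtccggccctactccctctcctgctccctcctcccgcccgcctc
The searched motifs were the core of the estrogen response element (GGTCA, or TGACC on the other strand), the full element (GGTCA and TGACC with any 3 bases between), a progesterone and glucocorticoid response element (AGAACA and TGTTCT with any 3 bases between), the AP-1 site (TGA and TCA with any 1 base between), the cAMP response element core TGACG, the BMP SMAD site GGCGCC, the SMAD box GTCTAGAC and the TATA box TATAAA. The core is contained in the full element. Among all 32851 promoters of the table cut to the same 250 bases, 35.24% held the core, 0.06% the full element, 0.01% the progesterone and glucocorticoid element and 6.75% an AP-1 site. The cAMP core stood in 17.77%, the BMP SMAD site in 9.59%, the SMAD box in 0.17% and the TATA box in 12.37%. The Inhbb window held none of these letters and was 68% G and C, against a median of 52.4% over all promoters. The Fstl3 window held the core on the other strand at -200 to -196 and again at -195 to -191, counted back from the start, and a TATA box on the other strand at -29 to -24. The Inhba window held the core on the other strand at -218 to -214 and a TATA box at -91 to -86, with 43.2% G and C. The Chrd window held a BMP SMAD site at -203 to -198 and the core at -170 to -166. A match is a description of the letters only, and nothing about binding was measured.

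Libraries held from 18042357 counts to 39783785 counts (PBS E2 replicate 1), with a median of 21259172.5. All 10 genes passed the filter on low counts, which left 15494 genes for testing. Grem1 passed it narrowly: it had 1 to 21 counts per library and reached 10 counts only in PBS OIL replicate 2, DOX OIL replicate 2 and DOX OIL replicate 3. So a difference of Grem1 from OIL is partly fixed by that filter and supports nothing here, and its calls are kept apart in the counts below. Levels below are in CPM, counts relative to the TMM-scaled library size (trimmed mean of M values). Markers of uterine epithelium, stroma, smooth muscle, endothelium, mesothelium and macrophages were found in every group. The summed CPM of 8 macrophage markers lay between 321.6 and 1799 (PBS OIL replicate 2) and that of 6 endothelial markers between 510.2 and 835.0. Of 6 ovary markers, Fshr was at 0 in every library and Cyp19a1 did not exceed 0.0411 CPM. The others were detected: Star at 10.3 to 37 CPM, Inha at 1.96 to 18.2, Cyp11a1 at 0.723 to 3.68 and Amh at 0.0526 to 2.23 CPM. Because the tissue is bulk, fewer cells of a type and less RNA per cell cannot be told apart.

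Tests came from edgeR's quasi-likelihood F test with Benjamini-Hochberg adjustment over all 15494 genes, and a gene is called where its adjusted p is under 0.05. For DOX under OIL, 0 of the 10 genes were called, where 0.0129% of all genes were. For DOX under E2, 2 of the 10 were called, where 41% of all genes were. For DOX under P4, 0 of the 10 were called, where 0% of all genes were. For E2 against OIL the count was 5 of 10 in the PBS arm, with 61.4% of all genes called, and 6 of 10 (5 without Grem1) in the DOX arm, with 72.6%. For P4 against OIL it was 6 of 10 (5 without Grem1) in the PBS arm, with 31.8% of all genes called, and 4 of 10 (3 without Grem1) in the DOX arm, with 29.8%. The interaction of E2 with DOX, which tests whether the E2 effect differs between arms, was called for 1 of 10 genes against 22.9% of all genes. The interaction of P4 with DOX was called for 0 of 10 against 0.00645%. The shares of the 10 genes under E2 lie close to or below the background, so those counts are no result about the set. The genes were chosen with earlier results of these data known, so the P4 counts are no result about the set either. With a score of adipocyte markers as a covariate, 3 of the 10 were called for P4 in the PBS arm. The comparisons share groups: E2 and P4 are set against the same OIL libraries, and each E2 group also enters the DOX comparison. The plot of CPM by library gives all 10 genes.

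**Figure D1:**
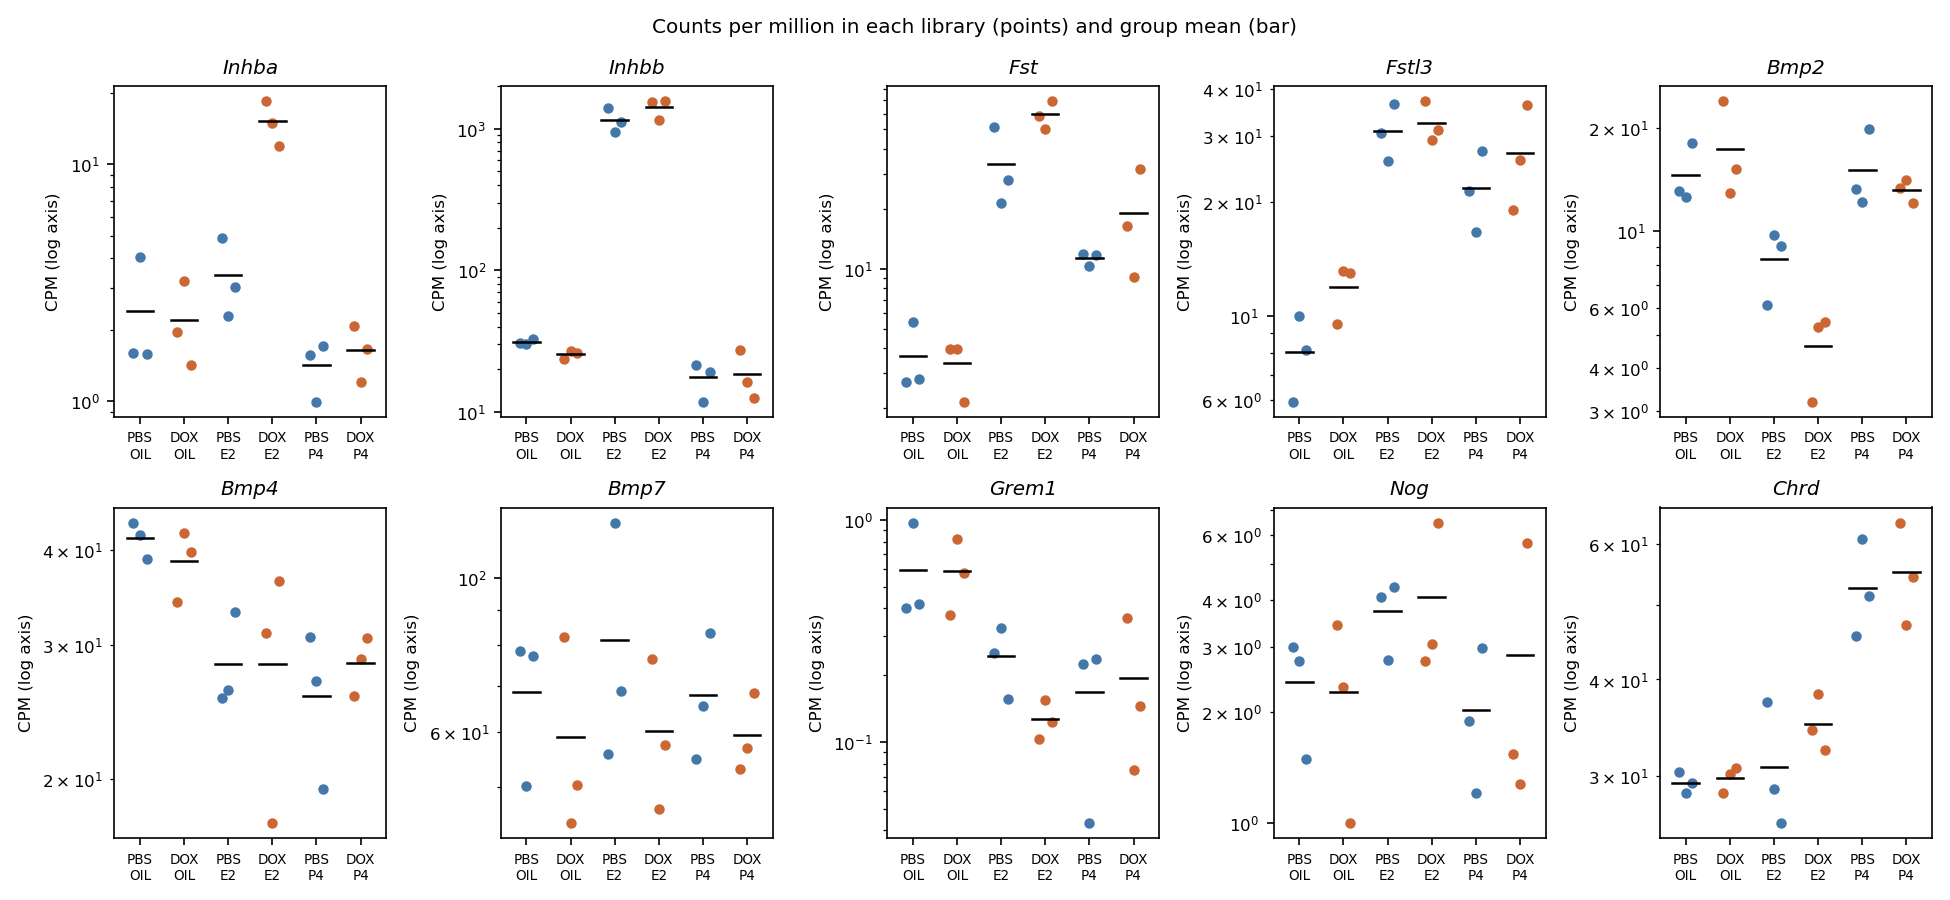
CPM (log axis) of the 10 genes in each of the 18 libraries; points are libraries, bars are group means, blue is PBS and orange DOX. Inhbb rises from 30.3 to 32.6 CPM in PBS OIL to 948.1 to 1393 CPM in PBS E2, and the DOX E2 libraries of Inhba (12 to 18.5 CPM) lie above all others.

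Among the ligands, Inhbb rose most with E2. Inhbb (chromosome 1, 119415465 to 119422248, minus strand, 1 annotated transcript) encodes the activin and inhibin beta B subunit. It stood at 30.8, 30.3 and 32.6 CPM in PBS OIL and at 1393, 948.1 and 1124 CPM in PBS E2. With DOX it stood at 23.8, 26.8 and 25.9 CPM under OIL and at 1532, 1156 and 1568 CPM under E2. Every E2 library lay above every OIL library by more than an order of magnitude. The log2 fold change for E2 was 5.21 ± 0.29 (SE) in the PBS arm, 37-fold (edgeR adjusted p 4.52e-09), and 5.80 ± 0.29 in the DOX arm, 55.7-fold (adjusted p 4e-10). The arms were not shown to differ, with an interaction of 0.59 ± 0.34 (95% interval -0.14 to 1.32, adjusted p 0.228). Under OIL, DOX against PBS gave -0.29 ± 0.25 for Inhbb (-0.82 to 0.23, edgeR adjusted p 0.82), with groups that did not overlap. DOX against PBS under E2 gave 0.30 ± 0.24 for Inhbb (-0.21 to 0.80, adjusted p 0.339), with overlapping groups. With a score of adipocyte markers as a covariate that value was 1.02 (adjusted p 0.0241) and the interaction was 1.10 ± 0.32 (adjusted p 0.0284), both called.

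Under P4, Inhbb stood at 21.6, 11.8 and 19.3 CPM in the PBS arm and at 27.2, 16.2 and 12.6 CPM in the DOX arm. The PBS P4 libraries lay below all PBS OIL libraries, and the DOX P4 libraries overlapped DOX OIL. Inhbb fell by 0.83 on the log2 scale with P4 in the PBS arm (SE 0.25, edgeR adjusted p 0.0206). Without PBS P4 replicate 2 that call was lost (-0.61, adjusted p 0.0933), as with the adipocyte score (-0.42, adjusted p 0.221). The value with DOX was -0.45 ± 0.25 (adjusted p 0.187), which was called without DOX P4 replicate 1 (-0.82, adjusted p 0.0176) and was -0.23 without DOX P4 replicate 3.

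Inhba, which encodes the beta A subunit, was high in the DOX E2 libraries. Inhba (chromosome 13, 16011851 to 16031621, plus strand) stood at 1.6, 4.04 and 1.58 CPM in PBS OIL and at 1.95, 3.21 and 1.42 CPM in DOX OIL. It stood at 4.90, 2.28 and 3.04 CPM in PBS E2 and at 18.5, 15 and 12 CPM in DOX E2. Under P4 it stood at 1.57, 0.992 and 1.70 CPM with PBS and at 2.08, 1.2 and 1.66 CPM with DOX. The 3 DOX E2 libraries did not overlap any other group, and the next highest library was PBS E2 replicate 1. PBS E2 overlapped both OIL groups and lay above both P4 groups. Under E2, Inhba rose with DOX by a log2 fold change of 2.13 ± 0.40, 4.38-fold (95% interval 1.29 to 2.97, edgeR adjusted p 0.000683). E2 raised it in the DOX arm by 2.78 ± 0.41, 6.86-fold (adjusted p 1.56e-05). In the PBS arm E2 gave 0.52 ± 0.40 (95% interval -0.33 to 1.37, adjusted p 0.275). Without PBS OIL replicate 2, the OIL library where Inhba was highest, that value was 1.11 (adjusted p 0.0251). The E2 effect on Inhba differed between the arms, with an interaction of 2.26 ± 0.56 (edgeR adjusted p 0.0109). Leaving out any 1 library gave interactions of 1.67 to 2.64, and each of these was called. P4 gave -0.76 ± 0.42 for Inhba in the PBS arm (adjusted p 0.179) and -0.42 ± 0.41 in the DOX arm (adjusted p 0.476). On the opposite strand, Inhba overlaps B230303A05Rik and Gm48444, and the sources used here do not say whether reads were counted by strand, so reads of these genes cannot be told apart from its own.

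Cell type markers were also called with DOX under E2, where 41% of all genes were called. All 12 adipocyte markers were lower, with a summed CPM of 479.7 to 7124 in PBS E2 (the highest in replicate 1) and 73 to 349.9 in DOX E2. Of 5 mesothelial markers 3 were lower, with sums of 234.7 to 252.3 against 86.6 to 168.5 CPM. Of 8 stromal markers 2 were higher and 1 lower (sums 3417 to 4972 against 2115 to 2947 CPM). The largest part of that sum was Dcn (2431 to 3806 against 973.3 to 1846 CPM). Pdgfra (125.9 to 176.9 against 201.4 to 228.0 CPM) and Wnt5a (78.7 to 84.9 against 149.3 to 224.8 CPM) lay higher, and the other stromal markers overlapped. Of 8 epithelial markers 2 were higher (565.3 to 819.9 against 824.0 to 1163 CPM). Of the 6 oviduct or ciliated cell markers 5 were tested and 2 were lower (11.5 to 21.2 against 9.14 to 10.4 CPM), and of the 6 ovary markers 4 were tested and 3 were lower (37.4 to 45.1 against 15.5 to 21.1 CPM). None of the 8 smooth muscle markers (9688 to 10682 against 8643 to 10493 CPM) and none of the 8 macrophage markers (437.7 to 470.8 against 326.5 to 596.9 CPM) were called. Of 6 endothelial markers 1 was higher (510.2 to 835.0 against 614.6 to 806.5 CPM). The shares for stroma, epithelium, endothelium and oviduct or ciliated cells did not exceed that of all genes. Those counts are therefore no result about these cells. The part of the markers in the differences of Inhba and Bmp2 was not tested beyond the covariate fit. In that fit Inhba remained called with DOX under E2. The adipocyte sums of the 2 groups did not overlap, so the fit cannot tell the score apart from DOX under E2. The same limit holds for the other genes in that fit.

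**Figure D2:**
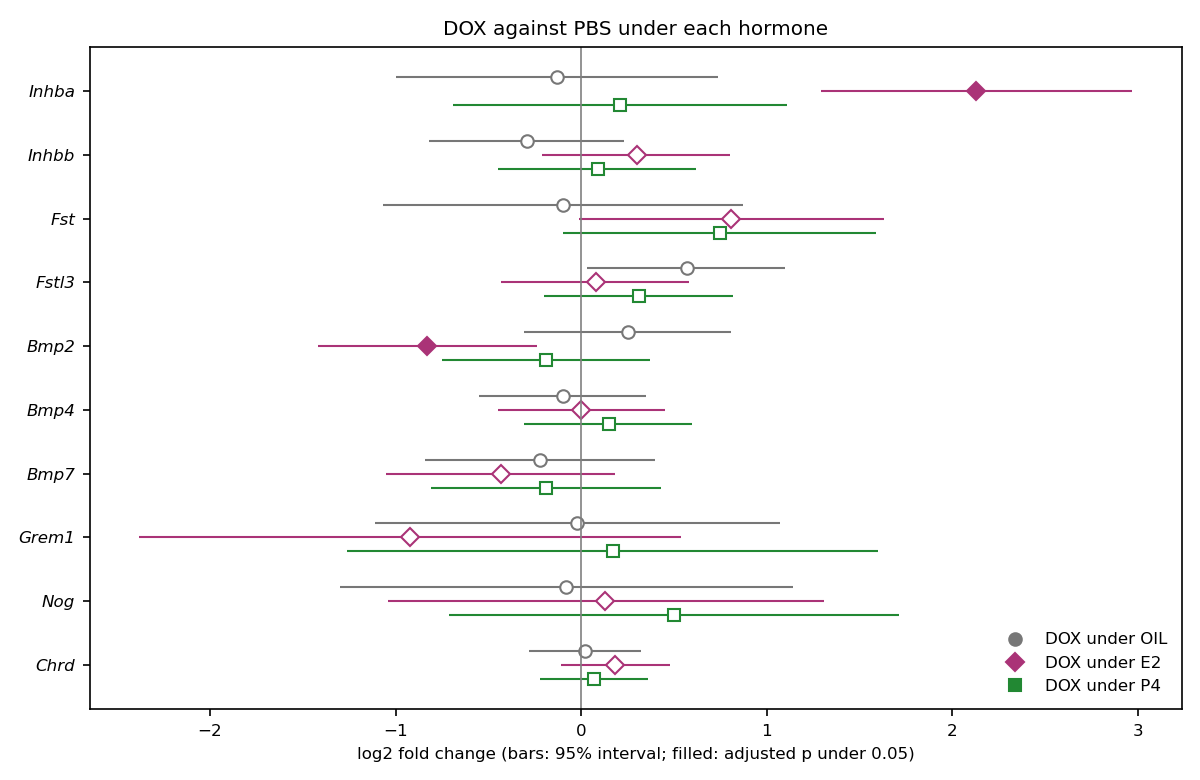
Log2 fold change of DOX against PBS for each gene under OIL (grey circles), E2 (purple diamonds) and P4 (green squares); bars are 95% intervals and filled symbols have an adjusted p under 0.05. Filled symbols appear under E2 for Inhba (2.13) and Bmp2 (-0.83).

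Both antagonists of activin rose with E2 and with P4. Fst (chromosome 13, 114452290 to 114458951, minus strand), which encodes follistatin, stood at 2.72, 5.43 and 2.80 CPM in PBS OIL and at 3.98, 3.99 and 2.16 CPM in DOX OIL. Under E2 it stood at 51.7, 21.5 and 27.8 CPM with PBS and at 58.6, 50.3 and 69.4 CPM with DOX. Under P4 it stood at 11.9, 10.4 and 11.8 CPM with PBS and at 16.5, 9.14 and 31.6 CPM with DOX. All hormone libraries lay above all OIL libraries of Fst. With E2, Fst rose by a log2 fold change of 3.21 ± 0.44 in the PBS arm (9.27-fold, edgeR adjusted p 1.25e-05) and 4.13 ± 0.45 in the DOX arm (17.5-fold, adjusted p 6.12e-07). With P4 it rose by 1.64 ± 0.43 in the PBS arm (adjusted p 0.0102) and 2.49 ± 0.43 in the DOX arm (adjusted p 0.000821). With limma voom the P4 value in the PBS arm was 1.64 and missed the threshold (adjusted p 0.0567). DOX against PBS under E2 gave 0.81 ± 0.39 for Fst (95% interval -0.01 to 1.63, adjusted p 0.103). That value was called without PBS E2 replicate 1 (1.27, adjusted p 0.02) and with limma voom (1.05, adjusted p 0.0013). The interaction of E2 with DOX was 0.91 ± 0.60 for Fst (adjusted p 0.28). Under P4, DOX gave 0.75 ± 0.40 (adjusted p 0.892), and this was 0.17 to 1.09 when 1 library was left out. Fst overlaps Gm47040 on the opposite strand, with the same limit as for Inhba.

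Fstl3 (chromosome 10, 79777272 to 79782630, plus strand) encodes a follistatin relative that binds activins. It stood at 5.93, 10 and 8.11 CPM in PBS OIL and at 9.53, 13.2 and 13 CPM in DOX OIL. Under E2 it stood at 30.5, 25.7 and 36.4 CPM with PBS and at 37.1, 29.3 and 31.1 CPM with DOX. Under P4 it stood at 21.5, 16.7 and 27.3 CPM with PBS and at 19.1, 25.9 and 36.3 CPM with DOX. In each arm the E2 and P4 libraries lay above all OIL libraries, and the E2 and P4 libraries overlapped. The log2 fold change for E2 was 1.94 ± 0.25 in the PBS arm (edgeR adjusted p 7.6e-06) and 1.45 ± 0.25 in the DOX arm (adjusted p 6.69e-05). For P4 it was 1.45 ± 0.25 in the PBS arm (adjusted p 0.000782) and 1.19 ± 0.25 in the DOX arm (adjusted p 0.00239). Under OIL, DOX gave 0.57 ± 0.25 for Fstl3 (unadjusted p 0.0402, edgeR adjusted p 0.603), and the groups overlapped. That was the 1 gene of the 10 with an unadjusted p under 0.05 for DOX under OIL. DESeq2 and limma voom also called 0 of the 10 there and under P4. Fstl3 overlaps the protein-coding gene Prss57 on the opposite strand, so reads in the shared part are uncertain.

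Levels of different genes were compared per kb of merged exon length in GENCODE M21. In PBS OIL, Inhbb stood at 7.33 ± 0.286 CPM per kb (SD, n = 3), Fstl3 at 3.28 ± 0.839, Fst at 0.795 ± 0.337 and Inhba at 0.377 ± 0.221. In PBS E2, Inhbb stood at 271.4 ± 52.6 CPM per kb against 12.6 ± 2.19 for Fstl3 and 7.34 ± 3.48 for Fst. In DOX E2 these levels were 333.4 ± 53.6, 13.3 ± 1.66 and 13 ± 2.08 CPM per kb, and Inhba stood at 2.37 ± 0.512. So Inhbb made up 95.1% of the summed level of Inhba and Inhbb in PBS OIL, 99.8% in PBS E2, 99.3% in DOX E2 and 94.1% in DOX P4. The highest level of Inhba, in DOX E2, therefore remained a small part of the sum. Fst made up 19.2% ± 3.46 (SD) of the summed level of Fst and Fstl3 in PBS OIL, 35.8% ± 10.2 in PBS E2 and 49.3% ± 4.5 in DOX E2.

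The ratio of the summed activin ligand level to the summed Fst and Fstl3 level was taken in each library on a log2 scale. It was 1.31, 0.55 and 1.01 in PBS OIL and 0.31, 0.12 and 0.13 in DOX OIL. It was 3.79, 3.88 and 3.66 in PBS E2 and 3.70, 3.58 and 3.73 in DOX E2. It was -1.10, -1.64 and -1.52 in PBS P4 and -0.76, -1.65 and -2.76 in DOX P4. The E2 libraries lay above and the P4 libraries below every OIL library, so ligand transcripts exceeded antagonist transcripts under E2 (geometric means of 13.7 and 12.7) and were fewer under P4 (0.374 and 0.303). The difference from OIL was 2.82 for E2 and -2.38 for P4 in the PBS arm, and 3.48 and -1.91 in the DOX arm. Each of these 4 had an exact two-sided permutation p of 0.1, the smallest that 3 against 3 libraries can give (0.175 after Benjamini-Hochberg adjustment over 14 tests). DOX under OIL gave -0.77 with the same exact permutation p of 0.1 and groups that did not overlap, and DOX under E2 gave -0.11 (exact permutation p 0.3). Inha, whose product joins a beta subunit to form inhibin, entered neither sum. A ratio of transcripts says nothing of the proteins.

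**Figure D3:**
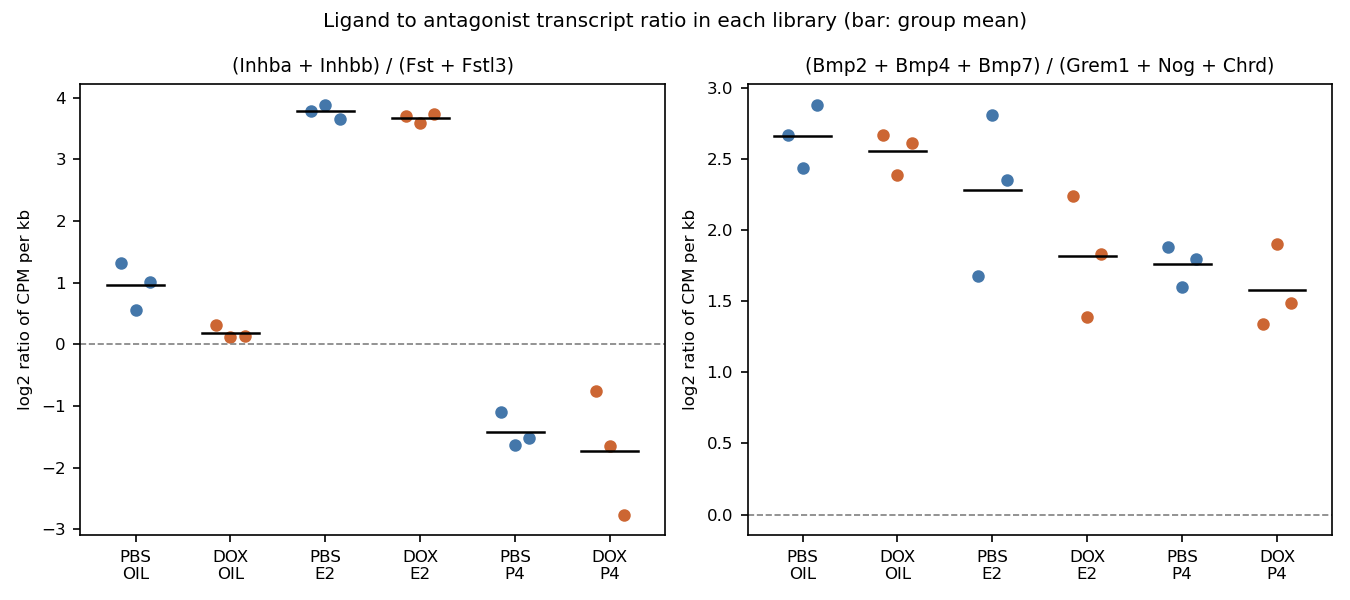
Log2 ratio of summed ligand to summed antagonist CPM per kb in each library for the activin (left) and BMP (right) genes; points are libraries and bars group means, with a dashed line at equal levels. The activin ratio lies between 3.58 and 3.88 in the 6 E2 libraries and below 0 in the 6 P4 libraries.

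Bmp2 was the BMP ligand that changed most, and it fell with E2. Bmp2 (chromosome 2, 133552159 to 133562885, plus strand) stood at 13.1, 12.6 and 18.1 CPM in PBS OIL and at 23.9, 12.9 and 15.2 CPM in DOX OIL. Under E2 it stood at 6.13, 9.76 and 9.06 CPM with PBS and at 3.20, 5.26 and 5.46 CPM with DOX. Under P4 it stood at 13.3, 12.2 and 19.8 CPM with PBS and at 13.4, 14.1 and 12.1 CPM with DOX. The E2 libraries lay below all others, and within E2 the DOX libraries lay below the PBS libraries. Bmp2 fell with E2 by 0.82 on the log2 scale in the PBS arm (SE 0.27, edgeR adjusted p 0.0146) and by 1.90 in the DOX arm (SE 0.28, adjusted p 1.47e-05). The call in the PBS arm was lost without PBS OIL replicate 3 and without PBS E2 replicate 1, both with -0.64 (adjusted p 0.0728 and 0.0741). With DOX under E2, Bmp2 fell by 0.83 (SE 0.28, edgeR adjusted p 0.0263). This call was lost without PBS E2 replicate 2 (-0.70), PBS E2 replicate 3 (-0.76) or DOX E2 replicate 1 (-0.64), in a fit of the compared groups alone (-0.87, adjusted p 0.0566) and with the adipocyte score (-0.88, adjusted p 0.139). The interaction of E2 with DOX was -1.08 ± 0.38 for Bmp2 and missed the threshold (edgeR adjusted p 0.0536). It passed with DESeq2 (adjusted p 0.0288) and limma voom (0.0384). P4 gave -0.39 ± 0.26 in the DOX arm (adjusted p 0.276).

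Bmp4 and Bmp7, the BMP ligands with more transcripts per kb, varied less between groups. Bmp4 (chromosome 14, 46383520 to 46390669, minus strand) stood at 43.5, 41.9 and 39 CPM in PBS OIL, at 25.6, 26.2 and 33.2 CPM in PBS E2 and at 30.8, 26.9 and 19.4 CPM in PBS P4. With DOX, Bmp4 stood at 34.2, 42.1 and 39.8 CPM under OIL, at 31.1, 17.5 and 36.4 CPM under E2 and at 25.7, 28.8 and 30.7 CPM under P4. In the PBS arm both hormone groups lay below all OIL libraries, and in the DOX arm the E2 libraries overlapped OIL while the P4 libraries did not. Bmp4 fell in the PBS arm by 0.55 with E2 (SE 0.21, edgeR adjusted p 0.0336) and by 0.69 with P4 (SE 0.21, adjusted p 0.0223). The E2 call was lost without PBS OIL replicate 1 or 2 or PBS E2 replicate 1 or 2 (-0.54 to -0.48) and with limma voom (-0.35). The P4 call was lost without PBS OIL replicate 1 (-0.66), without PBS P4 replicate 3 (-0.52) and with the adipocyte score (-0.51). Bmp4 in the DOX arm gave -0.45 ± 0.21 with E2 (adjusted p 0.0693) and -0.44 ± 0.21 with P4 (adjusted p 0.127). The E2 value was called with limma voom (-0.57, adjusted p 0.0229) and without DOX E2 replicate 3 (-0.69, adjusted p 0.0116), and the P4 value in a fit of the compared groups alone (-0.44, adjusted p 0.0174). No difference between the arms was shown for Bmp4, since neither interaction was called. Bmp4 overlaps Gm15217 and Gm15222 on the opposite strand, and counts in those parts are uncertain.

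Bmp7 (chromosome 2, 172868012 to 172940321, minus strand) was called in 0 of the 9 comparisons by edgeR. Its group means lay between 59 CPM (DOX OIL) and 81.5 CPM (PBS E2), and its libraries between 44.4 and 120.1 CPM. All 6 groups overlapped. The value farthest from 0 was that of DOX under E2, -0.43 ± 0.29 (95% interval -1.05 to 0.18, edgeR adjusted p 0.249), which was -1.06 (adjusted p 0.0489) with the adipocyte score and -0.05 without PBS E2 replicate 2, the library at 120.1 CPM. Bmp7 had no unadjusted p under 0.05 in any comparison.

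Of the BMP antagonists, Chrd rose with P4. Chrd (chromosome 16, 20733127 to 20742384, plus strand), which encodes chordin, stood at 30.3, 28.5 and 29.3 CPM in PBS OIL and at 28.5, 30.1 and 30.7 CPM in DOX OIL. Under P4 it stood at 45.5, 61 and 51.4 CPM with PBS and at 64, 47.1 and 54.4 CPM with DOX. Under E2 it stood at 37.4, 28.8 and 26 CPM with PBS and at 34.4, 38.3 and 32.4 CPM with DOX. The 6 P4 libraries lay above the other 12 libraries. The log2 fold change for P4 was 0.84 ± 0.14 in the PBS arm (1.79-fold, edgeR adjusted p 0.000551) and 0.89 ± 0.14 in the DOX arm (1.85-fold, adjusted p 0.000375). Left out 1 at a time, the libraries gave 0.72 to 0.94 and 0.77 to 1.0, all called. E2 gave 0.24 ± 0.14 in the DOX arm (adjusted p 0.14), with groups that did not overlap, and DOX under E2 gave 0.18 ± 0.14 (adjusted p 0.308). The latter was called without PBS E2 replicate 1 (0.35, adjusted p 0.043) and with limma voom (0.39, adjusted p 0.0186). Chrd overlaps Thpo on the opposite strand near its start, with the same limit on strand.

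Smooth muscle and stromal markers were called with P4 beside Chrd, Fst and Fstl3. Of all genes, 31.8% were called with P4 in the PBS arm and 29.8% in the DOX arm. In the PBS arm 6 of 8 smooth muscle markers were higher with P4 (summed CPM 13249 to 17520 against 7015 to 8130 in OIL) and 4 of 8 stromal markers (4835 to 6221 against 3501 to 5432). In the DOX arm 6 of 8 markers of each type were higher, with smooth muscle sums of 14612 to 26117 against 6282 to 13786 CPM and stromal sums of 5139 to 6179 against 5017 to 5590 CPM. Adipocyte markers were lower for 3 of 12 in the PBS arm (198.9 to 528.3 against 888.4 to 3517 CPM) and for 0 of 12 in the DOX arm (170.3 to 556.4 against 384.0 to 1059 CPM). In the PBS arm 2 of 8 epithelial, 1 of 8 macrophage and 2 of 4 tested ovary markers were also lower. Of 5 tested oviduct or ciliated cell markers there, 1 was higher and 1 lower. In the DOX arm 3 of 8 epithelial, 1 of 6 endothelial and 1 of 5 mesothelial markers were lower. So were 1 of 5 tested oviduct or ciliated cell markers and 1 of 4 tested ovary markers. The part of the markers in the rises of Chrd, Fst and Fstl3 was not tested. With the adipocyte score as a covariate, Chrd, Fst and Fstl3 were called with P4 in both arms. In the PBS arm the adipocyte sums of P4 and OIL did not overlap, so that fit cannot tell the score apart from P4. For E2, 61.4% of all genes were called in the PBS arm and 72.6% in the DOX arm. With E2 in the PBS arm, 3 of 8 smooth muscle markers were higher (sums of 9688 to 10682 CPM), 3 of 8 stromal markers lower (3417 to 4972), 2 of 8 epithelial markers lower and 0 of 12 adipocyte markers called. With E2 in the PBS arm 3 of 5 tested oviduct or ciliated cell markers, 2 of 6 endothelial markers, 1 of 5 mesothelial markers and 1 of 8 macrophage markers were also lower, and of 4 tested ovary markers 2 were higher and 1 lower. E2 in the DOX arm went with 4 of 8 epithelial markers higher, 1 stromal marker higher and 5 of 8 lower, and all 5 mesothelial markers lower. In the same comparison 2 of 12 adipocyte markers were lower (73 to 349.9 CPM against 384.0 to 1059 in OIL), and 4 of 5 tested oviduct or ciliated cell markers. Smooth muscle had 2 markers higher and 1 lower, endothelium 1 higher and 2 lower, ovary 1 higher and 2 lower of 4 tested, and 0 of 8 macrophage markers were called.

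Grem1 (chromosome 2, 113746164 to 113758646, minus strand), which encodes gremlin, was the lowest of the 10 genes. It had 9, 21 and 9 counts in PBS OIL and 9, 18 and 11 in DOX OIL. It had 9, 6 and 3 counts in PBS E2, 2, 3 and 3 in DOX E2, 5, 1 and 5 in PBS P4, and 8, 2 and 4 in DOX P4. In CPM, no hormone library of Grem1 reached the lowest OIL library of its own arm. The fitted values against OIL are given as a description, since OIL libraries carried the gene past the filter. For E2 the log2 fold change was -2.17 ± 0.63 in the DOX arm (edgeR adjusted p 0.0058, and -1.53 with adjusted p 0.108 under the adipocyte score). In the PBS arm it was -1.27 ± 0.56 (adjusted p 0.0612), which passed the threshold with limma voom (-1.58) and without PBS OIL replicate 1 (-1.49) and was -0.73 without PBS OIL replicate 2. For P4 it was -1.81 ± 0.60 in the PBS arm (adjusted p 0.031) and -1.63 ± 0.58 in the DOX arm (adjusted p 0.0445). The value for P4 in the PBS arm missed the threshold without PBS OIL replicate 2 (-1.28) or PBS P4 replicates 2 (-1.35) or 3 (-2.13), in a fit of the compared groups alone (adjusted p 0.0823) and with the adipocyte score (-1.24, adjusted p 0.258). That in the DOX arm missed it without DOX OIL replicates 2 (-1.30) or 3 (-1.64) or DOX P4 replicates 2 (-1.23) or 3 (-1.46). It also missed it with DESeq2 (adjusted p 0.0759), with no filter (0.0623), with the compared groups alone (0.0767), with a replicate block (0.0647) and with the adipocyte score (0.0952). DOX under E2 gave -0.92 ± 0.69 (adjusted p 0.304), with wide error at this depth.

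Nog (chromosome 11, 89300638 to 89302332, minus strand), which encodes noggin, was called in 0 of the 9 comparisons by edgeR, with an unadjusted p under 0.05 in none. It stood at 2.99, 2.74 and 1.49 CPM in PBS OIL, at 4.09, 2.76 and 4.35 CPM in PBS E2 and at 1.89, 1.21 and 2.98 CPM in PBS P4. With DOX, Nog stood at 3.44, 2.34 and 1 CPM under OIL, at 2.74, 3.04 and 6.49 CPM under E2 and at 1.54, 1.28 and 5.71 CPM under P4. The groups overlapped in each comparison. E2 gave 0.64 ± 0.56 in the PBS arm (95% interval -0.56 to 1.84, edgeR adjusted p 0.342) and 0.85 ± 0.57 in the DOX arm (-0.35 to 2.05, adjusted p 0.188).

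**Figure D4:**
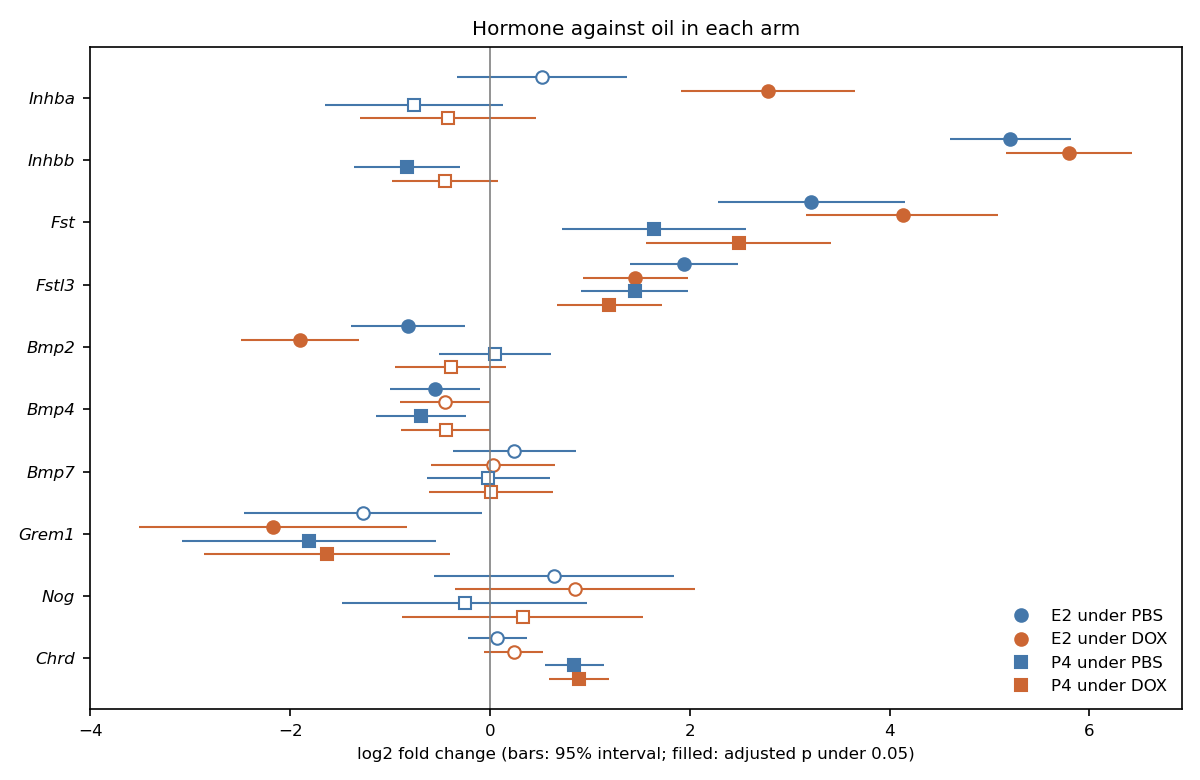
Log2 fold change of E2 (circles) and P4 (squares) against OIL for each gene in the PBS (blue) and DOX (orange) arms; bars are 95% intervals and filled symbols have an adjusted p under 0.05. Inhbb with E2 (5.21 and 5.80) lies farthest to the right, and Chrd is filled for P4 (0.84 and 0.89) and open for E2.

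Per kb, the BMP genes stood in the order Bmp4 (18.4 ± 1.02 CPM per kb, SD, n = 3), Bmp7 (17.1 ± 3.96), Chrd (4.69 ± 0.144), Bmp2 (4.11 ± 0.858), Nog (1.42 ± 0.473) and Grem1 (0.144 ± 0.0786) in PBS OIL. Bmp4 and Bmp7 did not differ beyond their spread, nor did Chrd and Bmp2. Bmp2 made up 10.4% ± 1.79 of the 3 summed BMP ligands in PBS OIL and 4.85% ± 2.21 in DOX E2. Chrd made up 75.3% ± 6.38 of the 3 summed antagonists in PBS OIL and 87% ± 5.66 in PBS P4. The log2 ratio of summed BMP ligands to summed antagonists was 2.67, 2.44 and 2.88 in PBS OIL and 1.88, 1.6 and 1.8 in PBS P4. It was 2.67, 2.39 and 2.61 in DOX OIL, 1.34, 1.90 and 1.49 in DOX P4 and 2.24, 1.39 and 1.83 in DOX E2. In PBS E2 it was 1.68, 2.81 and 2.35 and overlapped OIL. The P4 libraries lay below the OIL libraries in each arm, by 0.90 and 0.98 in the mean, as did DOX E2 by 0.74, each with an exact two-sided permutation p of 0.1 (0.175 adjusted over 14 tests). The ratio stayed above 0 in all libraries, so BMP ligand transcripts exceeded those of these 3 antagonists throughout.

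Other genes of the pathway were taken from 6 lists: other ligands, other antagonists, proteases that process ligands or antagonists, receptors, SMADs with their regulators, and target genes. The lists hold 93 genes of the table, of which 82 were tested. Inha is also among the ovary markers and Hand2 among the stromal markers, so those marker counts are not separate from these. For DOX under E2, 33 of 82 were called, 12 higher and 21 lower. Of all genes 41% were called, 20.4% higher and 20.6% lower. The median log2 fold change was -0.19 over the 82 and 0.02 over all genes. Among 16 other antagonists 1 was higher and 9 were lower, among 15 other ligands 3 higher and 4 lower, and among 15 receptors 2 higher and 2 lower. Of 5 proteases 3 were higher and 0 lower, of 13 SMADs and regulators 1 higher and 3 lower, and of 18 targets 2 higher and 3 lower. The called genes with the smallest p were, among those that rose, Pcsk5 (1.19 ± 0.17 on the log2 scale) and Pcsk6 (1.19 ± 0.22), convertases that cut ligand precursors, and Gdf6 (3.44 ± 0.57), a ligand of the BMP type. Among those that fell they were Smad9 (-2.33 ± 0.35), a SMAD used by BMP receptors, Id3 (-1.41 ± 0.23), a BMP target, and Bmp3 (-2.69 ± 0.46). The edgeR adjusted p of these 6 lay between 0.000106 and 0.000725. Gdf6 varied widely among libraries, at 18 ± 14.4 CPM (SD, n = 3) in DOX E2 against 1.65 ± 0.88 in PBS E2. Levels were low for Bmp3 (0.192 ± 0.154 against 1.32 ± 0.357 CPM) and Smad9 (0.869 ± 0.132 against 4.49 ± 2.2 CPM). DOX under OIL and DOX under P4 gave 0 called of 82 with edgeR.

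With E2 in the PBS arm, 44 of the 82 genes were called, 25 higher and 19 lower. The share of all genes was 61.4%, with 29.6% higher and 31.9% lower. Those with the smallest p were Id1, a BMP target (2.07 ± 0.23, edgeR adjusted p 1.32e-06), Skil, a SMAD corepressor (1.05 ± 0.13), and Gdf15, a distant family member (4.61 ± 0.63). Among the falls they were Inha, the alpha subunit that joins a beta subunit to form inhibin (-2.05 ± 0.18, adjusted p 1.34e-07), Tgif1, a corepressor (-1.52 ± 0.16), and Rgmb, a BMP co-receptor (-1.15 ± 0.15). Inha stood at 16.3 ± 2 CPM (SD, n = 3) in PBS OIL and 3.93 ± 0.474 CPM in PBS E2, so it fell where Inhbb rose. E2 in the DOX arm gave calls for 52 of 82, 20 higher and 32 lower. Of all genes 72.6% were called there, 35.1% higher and 37.5% lower. The pathway rises were led by Pcsk5 (1.87 ± 0.18), Pcsk6 (2.43 ± 0.23) and the co-receptor Eng (2.24 ± 0.23). The falls were led by Inha (-2.65 ± 0.19), Smad9 (-4.14 ± 0.35) and Rgmb (-1.54 ± 0.15). The E2 effect differed between arms for 18 of the 82 (7 higher and 11 lower in the DOX arm). Of all genes 22.9% were called, 10.1% higher and 12.8% lower. The pathway genes named by smallest p were Pcsk6 (1.76 ± 0.32) and Gdf6 (4.36 ± 0.90) upward and Smad9 (-2.50 ± 0.45), Ski (-0.73 ± 0.14) and Id3 (-1.58 ± 0.33) downward.

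With P4, 34 of the 82 genes were called in the PBS arm, 9 higher and 25 lower. The share of all genes was 31.8%, with 16.2% higher and 15.6% lower. In the DOX arm 35 were called, 13 higher and 22 lower, against 29.8% of all genes (14.7% higher and 15.1% lower). The pathway rises with the smallest p were the same 3 genes in both arms. Pcsk5 gave 1.26 ± 0.18 and 1.37 ± 0.18, Chrdl2, a chordin relative that binds BMPs, 1.71 ± 0.29 and 1.90 ± 0.29, and Gdf11, an activin-like ligand, 1.57 ± 0.29 and 1.55 ± 0.28, in the PBS and DOX arms. Chrdl2 stood at 40.5 ± 18.7 CPM in PBS OIL and 132.5 ± 39.6 CPM in PBS P4, so it rose beside Chrd. Falls named by smallest p were Tgif1 (-0.90 ± 0.16) and Atoh8 (-1.40 ± 0.25), a BMP target, in the PBS arm. In the DOX arm they were Atoh8 (-1.40 ± 0.25), Id3 (-1.32 ± 0.23) and Tgif1 (-0.89 ± 0.16). The edgeR adjusted p of the P4 genes named here was at most 0.00115. The arms share no libraries, but each gene was fitted with 1 spread for all groups.

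For each of the 10 genes the profile of 6 group means of log2 CPM, centred on its own mean, was set against all other tested genes, and the nearest were taken by the root mean square difference over the 6 groups. Shisa6 (0.11) and Trex2 (0.18) were nearest to Inhba, Gadd45g (0.14) and Krt86 (0.45) to Inhbb, and Igf1 (0.20) and Aldh1a2 (0.35) to Fst. Lrrc10b (0.17) and Dnajb5 (0.19) were nearest to Fstl3, Svip and Pck2 (0.06 each) to Bmp2, and Neurl3 and Fgf12 (0.10 each) to Grem1. Arhgdib (0.03) and Dennd2c (0.04) were nearest to Bmp4, Ctdsp1 (0.05) and Recql4 (0.06) to Bmp7, Plau (0.04) and Hspbap1 (0.06) to Nog, and C1qtnf6 and Ndufc2 (0.07 each) to Chrd. Small distances are easily reached by flat profiles such as that of Bmp7, so the distance of one gene cannot be set against that of another. Igf1, the growth factor gene nearest to Fst, had centred values of -1.66 and -1.67 in PBS and DOX OIL, 1.23 and 2.05 in PBS and DOX E2, and -0.05 and 0.12 in PBS and DOX P4. Gadd45g, nearest to Inhbb, had -1.70 and -1.78 in OIL, 3.70 and 4.16 in E2, and -2.33 and -2.05 in P4.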

How the data were processed

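The deposited table holds raw counts per gene symbol for 18 libraries of total RNA from whole uterus (Trizol extraction, TruSeq library kit, per the labels). The submitters' processing notes name build GRCm38, the aligner HISAT2 2.1.0 and the assembler StringTie 1.3.4d, with Trimmomatic 0.36 and FastQC 0.11.5 for reads, SAMtools 1.6, and R 3.4.4 with DESeq2 1.18.1. The sources used here do not give the counting tool, annotation or strand setting.

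Counts were filtered with filterByExpr of edgeR 4.0.16 (R 4.3.3; minimum count 10), scaled by TMM and fitted as 6 groups at once with a robust quasi-likelihood model (12 residual degrees of freedom). Each of 9 contrasts was adjusted by Benjamini-Hochberg over 15494 genes, with a threshold of 0.05. The SE is the log2 fold change divided by the square root of F, and 95% intervals use the t quantile of the model's degrees of freedom. Member fold changes within 1 SE of 0 are not given singly, nor are some others that were not called. Log2 ratios of CPM per kb (GENCODE M21 merged exons) were compared by exact two-sided permutation (scipy 1.17.1). The code was tested on simulated data.

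The 10 genes and the lists (6 pathway lists and 9 of cell type markers) were chosen with earlier results of these data known. The text names all 10 genes, with each of their edgeR calls but not each uncalled value. In each comparison it names up to 3 called pathway genes with the smallest p in each direction. It also names the 2 nearest profiles per gene (clone or predicted symbols left out). An item that this rule would name is not reported here. Alternatives were DESeq2 size factors, DESeq2 1.42.0, limma 3.58.1 voom with quality weights, a stricter filter (1 CPM in 3 libraries) or none, only the groups compared, a replicate block, an adipocyte score (mean log2 CPM of 12 markers) as a covariate, and each library left out. For ratios they were a pseudocount of 0.5 CPM, longest transcript length and each library left out.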

Additional observations from a re-analysis of the deposited data

Results flagged for a closer look

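The E2 effect on Inhba differed between the PBS and DOX arms by the test of the difference itself: the interaction was 2.26 ± 0.56 (SE) on the log2 scale (95% interval 1.06 to 3.46, edgeR adjusted p 0.0109). Inhba averaged 2.41 ± 1.41 CPM (SD, n = 3) in PBS OIL and 3.41 ± 1.35 CPM in PBS E2, and 2.19 ± 0.919 CPM in DOX OIL and 15.1 ± 3.27 CPM in DOX E2. Each of the 3 DOX E2 libraries was higher than each of the other 15 libraries. Adipocyte markers summed to 479.7 to 7124 CPM in PBS E2 and 73 to 349.9 CPM in DOX E2. The interaction was called in each of 8 other whole fits, that with an adipocyte score as covariate included, with values of 2.24 to 2.75. Since the adipocyte sums of PBS E2 and DOX E2 did not overlap, the covariate fit cannot tell them apart from DOX under E2.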

How the results depend on the processing

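Calls with E2 held in every alternative run for Inhbb, Fst and Fstl3 in both arms and for Inhba and Bmp2 in the DOX arm. The calls of Inhba with DOX under E2 and in the interaction also held in every run. So did those with P4 of Fstl3 and Chrd in both arms and of Fst in the DOX arm. Counts that moved by over 1.5 times were these. For DOX under E2, 4 of the 10 genes were called with limma voom (Fst and Chrd added), 1 in a fit of only the groups compared, and 1 to 4 with 1 library left out (4 without PBS E2 replicate 1, the library with the highest adipocyte marker sum). For E2 in the PBS arm, 3 to 5 were called with 1 library left out (3 without PBS E2 replicate 1). With the adipocyte score 3 were called for P4 in the PBS arm. In the E2 by DOX interaction 2 were called with DESeq2 or limma voom (Bmp2 added) or the adipocyte score (Inhbb added), and 1 to 2 with 1 library left out. Of the 82 pathway genes, DESeq2 called 1 for DOX under OIL, limma voom 51 for DOX under E2 and 28 in the interaction, and the adipocyte score left 18 for P4 in the PBS arm, with 22 to 31 when 1 library was left out. The causes were not tested. The activin ratio for DOX under P4 (-0.30) ran from -0.79 to 0.21 with 1 library left out, positive without DOX P4 replicate 3, and the BMP ratio for DOX under OIL (-0.11) ran from -0.22 to 0, the latter without PBS OIL replicate 3.

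Replicate numbers showed no sign of pairing, which 3 libraries per group cannot exclude. Deviations of libraries with the same number correlated between -0.282 and 0.365 (median -0.028), with 12 of 45 pairs over 0.1. Those of libraries with different numbers correlated between -0.312 and 0.275 (median -0.0142), with 23 of 90 pairs over 0.1. With a replicate block 2 of the 10 genes were called for DOX under E2, 5 and 6 for E2 and 6 and 3 for P4 in the PBS and DOX arms, 1 in the E2 interaction and 0 in the other 3 comparisons. The call it moved was Grem1 with P4 in the DOX arm (-1.6, adjusted p 0.0647). With 3 libraries per group, ratio tests cannot go below 0.1, and 1 to 21 counts limit Grem1. For DOX under OIL, edgeR called 2 genes (1253 with an unadjusted p under 0.05), DESeq2 21 and limma voom 1. For DOX with P4 these were 0 (822), 9 and 4, and for the P4 interaction 1 (525), 2 and 1.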

Other observations

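Some libraries had the highest level of their group for several of these genes. Since 1 of 3 libraries is highest for any gene, that is no result about a library. DOX P4 replicate 3 had the highest level of its group for Fst (31.6 CPM), Fstl3 (36.3 CPM) and Nog (5.71 CPM), and the lowest linear ratio of activin ligands to antagonists of all libraries (0.148). PBS OIL replicate 2 had the highest level of its group for Inhba (4.04 CPM), Fst (5.43 CPM), Fstl3 (10 CPM) and Grem1 (0.975 CPM), together with the highest sums of the group for adipocyte (3517 CPM) and macrophage (1799 CPM) markers. PBS OIL replicate 1 was likewise highest of that group for Bmp4 (43.5 CPM), Bmp7 (78.4 CPM), Nog (2.99 CPM) and Chrd (30.3 CPM). These values are given as measured, and the part of the markers in them was not tested.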
